A study of Mus musculus with 10 samples.

Results

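Hmgcs1, Idi1, Fdft1, Sqle, Lss, Cyp51, Srebf2 and Insig1 are 8 autosomal genes of cholesterol synthesis and its feedback control, chosen by name from the 24386 genes counted in every sample. Their nascent RNA was followed by transient transcriptome sequencing (TT-seq), in which RNA made during a short pulse of 4-thiouridine is isolated and sequenced. All 10 samples carried the label WT (wild type). The cells were TX1072, a female mouse embryonic stem cell (ESC) line from a cross of Mus musculus castaneus (Cast) and C57BL/6 (B6), whose B6 chromosome carries Xist under a promoter that doxycycline (DOX) induces. They were grown on gelatin in medium with serum, LIF and 2i, given DOX at 1 µg/ml from 24 h after plating, labelled with 0.5 mM 4-thiouridine for 5 min, and collected at 0, 4, 8, 12 and 24 h of DOX. There were 2 replicates at each of the 5 times, 10 samples in all, and the 0 h cells carried the same inducible allele without DOX. All samples with DOX made Xist and had been longer in culture than those at 0 h, so the drug, Xist RNA and culture time cannot be told apart as sources of a change.

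Cholesterol is built from acetyl-CoA through mevalonate, isoprenoids, squalene and lanosterol. The transcription factor SREBP2, encoded by Srebf2, drives genes of this route when membrane sterol is low. It is made as a precursor in the endoplasmic reticulum and is carried to the Golgi by SCAP, where proteases release its active part. When sterol is plentiful, INSIG1 and INSIG2 hold SCAP back, and Insig1 is itself a target of SREBP2, as are the enzymes. The genes are therefore known to rise and fall together in many cell types when sterol supply changes.

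The 10 libraries held 18809046 to 22274929 counts. In 0 h replicate 1, 49.2% of counts could be assigned to an allele, against 51.7% to 52.8% in the others, and the chi-square per degree of freedom between replicates was 10.8 at 0 h and 5.08 to 5.81 at the later times, so the counts and medians of the changes from 0 h are also given without each 0 h replicate. Levels are counts scaled to library size (CPM) and adjusted by trimmed mean of M-values (TMM). Xist had 1.42 and 1.48 CPM at 0 h and 334 to 669 CPM with DOX. The summed level of 7 ESC markers was 2589 to 2933 CPM, although Sox2 had 0 counts in every sample, its span lying wholly inside Sox2ot on the same strand. Markers of other cell types summed to 2.51 to 3.98 CPM for primitive endoderm (4 genes), 4.12 to 7.26 CPM for trophoblast (3 genes) and 2.93 to 5.90 CPM for fibroblasts (3 genes). The 3 primed epiblast markers summed to 116 to 151 CPM, nearly all from Dnmt3b, which had 109 to 147 CPM. In a bulk sample, fewer cells making a transcript and less of it per cell cannot be told apart.

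Promoters of 6 of the 8 genes were found in the RefSeq table (GRCm38.p6, the same assembly as mm10), all but those of Sqle and Fdft1. In each, the 250 bases before the RefSeq start site were searched on both strands for 4 motifs, and no 2 of the matches found overlap. The NF-Y box, written CCAAT, was present in all 6 genes, against 33.8% of the 32851 promoters in the table. The box bound by the general activator Sp1, written GGGCGG, was present in all 6 as well, against 32.7% of them. GENCODE starts Idi1 and Cyp51 further upstream than RefSeq. Every match in Idi1 and the only NF-Y match in Cyp51 lie inside those longer transcripts. A core of the sterol response element, to which SREBP proteins bind, was written TCACNCCAC. It was present only in Hmgcs1, from 137 to 129 bases before the start (1.05% of all promoters), and the E-box, written CACGTG, only in Insig1, from 101 to 96 bases before it (6.02% of all promoters). Stretches from the promoters of 3 genes are shown 5′ to 3′, with matches on either strand in capitals: that of Hmgcs1 because it holds the sterol element core, that of Insig1 because it holds the E-box, and that of Srebf2 because it encodes the factor that binds the sterol element. They end before the first transcript of RefSeq or GENCODE and lie on the plus strand, at chr13:119690201-119690350 for Hmgcs1, chr5:28071213-28071362 for Insig1 and chr15:82147031-82147180 for Srebf2.
Hmgcs1: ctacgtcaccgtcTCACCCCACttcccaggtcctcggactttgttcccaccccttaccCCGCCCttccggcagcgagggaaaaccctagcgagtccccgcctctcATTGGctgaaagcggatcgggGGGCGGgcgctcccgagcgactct
Insig1: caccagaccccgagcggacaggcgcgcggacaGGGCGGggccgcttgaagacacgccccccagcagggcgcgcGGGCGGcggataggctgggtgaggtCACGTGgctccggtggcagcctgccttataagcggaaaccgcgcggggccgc
Srebf2: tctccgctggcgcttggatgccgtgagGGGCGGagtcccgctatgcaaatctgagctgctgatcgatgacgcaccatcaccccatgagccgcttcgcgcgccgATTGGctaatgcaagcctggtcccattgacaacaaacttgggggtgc
In the Hmgcs1 stretch the first capitals are the sterol element core, in Insig1 the last capitals are the E-box, and the remaining capitals are Sp1 matches in all 3 and NF-Y matches in Hmgcs1 and Srebf2. A match of letters describes the sequence and does not show that a factor binds there. Nor does the lack of a match show that a gene has no sterol element. Only this exact spelling was searched, and only in those 250 bases.

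All 8 genes were transcribed at levels well above the limit of counting, with 550 to 4453 counts in any sample. To compare genes, CPM was divided by the length of the counted span, which runs from the first to the last exon and includes introns. Insig1, on mm10 chr5:28071412-28078662, had the highest density, 11.7 ± 1.22 CPM per kb (SD, n = 10 samples), the 97.0th percentile of the 14525 genes tested. Sqle, the squalene epoxidase gene on chr15:59315092-59331193, followed at 6.36 ± 0.377, and Cyp51, which encodes lanosterol demethylase (chr5:4080674-4104697, minus strand), had 5.51 ± 0.349. Fdft1, the squalene synthase gene (chr14:63145151-63179578, minus strand), had 5.12 ± 0.254 CPM per kb. Idi1, the isopentenyl diphosphate isomerase gene (chr13:8885606-8892396), had 4.71 ± 0.542, and Hmgcs1, which encodes the cytosolic HMG-CoA synthase (chr13:119690351-119708260), had 4.42 ± 0.330. Srebf2 (chr15:82147269-82204960) lay lower at 3.35 ± 0.123. Lss, the lanosterol synthase gene (chr10:76531605-76557139), was the lowest of the 8 at 2.08 ± 0.173 CPM per kb, the 70.1th percentile. The ranges over samples did not overlap between Insig1 and Sqle, between Hmgcs1 and Srebf2, or between Srebf2 and Lss. From Sqle down to Hmgcs1 each gene overlapped its neighbour in the order, although the lowest sample of Sqle (5.88) lay above the highest of Fdft1, Idi1 and Hmgcs1 (5.55, 5.59 and 5.02). Fdft1 and Lss each share part of their span with a gene on the opposite strand (Ctsb and 4930483K19Rik), and the counting used strand. Mir33, inside Srebf2 on the same strand, had 0 counts.

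**Figure D1:**
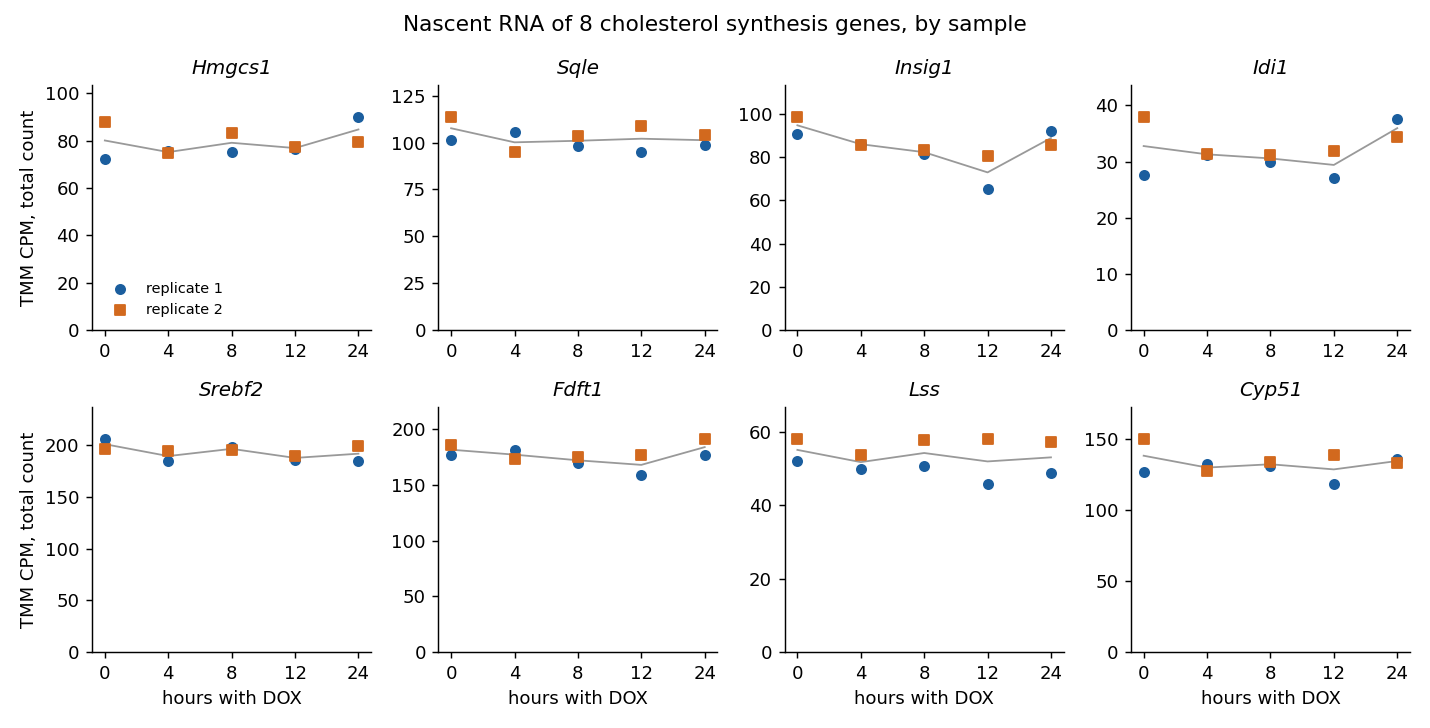
Each panel plots one gene's TMM-scaled CPM (vertical axis, from 0) against hours of DOX (horizontal axis, evenly spaced), with circles for replicate 1, squares for replicate 2 and a line through the means of the 2. Insig1 goes from 90.7 and 98.5 CPM at 0 h to 65.2 and 80.6 CPM at 12 h. In Sqle, Lss and Cyp51 the samples of every later time overlap those at 0 h.

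The first question was whether transcription of the pathway changed after DOX. None of the 8 genes was called changed against 0 h at 4, 8, 12 or 24 h by edgeR's quasi-likelihood test (adjusted p under 0.05 over 14525 genes), where 0.0138%, 0.193%, 0.95% and 1.85% of all tested genes were called. At an unadjusted p under 0.05 there were 0, 1, 1 and 0 members, each time Insig1, beside 2.09%, 4.06%, 11.5% and 10.3% of all genes. limma-voom called none at any of the 4 times, and DESeq2 called 1, Insig1 at 12 h. The share of all genes that DESeq2 called at 12 h is not given. With the replicate number as a block, edgeR also called 1, Insig1 at 12 h, where that fit called 4.94% of all genes. Across the 5 times, the F-test of edgeR called none either (1.25% of all genes), with 1 unadjusted p under 0.05 (8.45% of all genes). DESeq2 and limma-voom called none, and edgeR with the block called 1, Insig1 (6.12% of all genes). The intervals that follow are from the fit without the block. The 95% intervals of the 8 log2 changes lay between -0.34 and 0.21 at 4 h, between -0.40 and 0.22 at 8 h, between -0.58 and 0.16 at 12 h, and between -0.30 and 0.41 at 24 h. Each bound is the most extreme over the 8 genes, and single genes had narrower intervals, such as -0.25 to 0.05 for Srebf2 at 12 h.

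The regulators were Srebf2 and Insig1. Srebf2 had 206 and 196 CPM at 0 h, 185 and 194 at 4 h, 198 and 195 at 8 h, 185 and 190 at 12 h, then 184 and 199 at 24 h. It had the flattest course of the 8, its highest sample being 1.12 times its lowest, with log2 changes from 0 h between -0.10 and -0.03 and no adjusted p below 0.614 (edgeR). Insig1 had 90.7 and 98.5 CPM at 0 h, 86.1 and 85.7 at 4 h, 81.3 and 83.2 at 8 h, 65.2 and 80.6 at 12 h, then 92.2 and 85.3 at 24 h. Both of its samples at 4, 8 and 12 h lay below both 0 h samples, and those at 24 h overlapped them. At 4 h and at 8 h, 2 of the 8 genes were separated downward in this way, beside 13.4% and 15.8% of all tested genes. At 12 h the 0 h and DOX samples failed to overlap, all lower with DOX, in 3 of the 8 genes (Insig1, Fdft1 and Srebf2), and such a separation downward was found in 21.3% of all tested genes.

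Insig1 at 12 h was the change nearest to a call. Its log2 change was -0.38 (SE 0.094), a level 0.771 times that of 0 h, with an unadjusted p of 0.00114 and an adjusted p of 0.0884 by edgeR. The same replicate numbers moved together across times in the total counts, and with the replicate number as a block the adjusted p of Insig1 was 0.00172 at 12 h, where that fit called 4.94% of all genes. The block also called Insig1 across the 5 times (edgeR adjusted p = 0.0112, 6.12% of genes called) and its return between 12 h and 24 h (log2 change 0.29, adjusted p = 0.0499, 1.48% of genes called). The value turned on 12 h replicate 1, at 65.2 CPM. Leaving out a sample leaves its time with 1, which is then assumed to vary like the other times. Without 12 h replicate 1 the log2 change was -0.23, with an adjusted p of 0.721 without the block and 0.317 with it, whereas without 12 h replicate 2 it was -0.55 with an adjusted p of 0.0287. Without 0 h replicate 1 the log2 change was -0.43, and -0.41 with the block. Without 0 h replicate 2 it was -0.33, and -0.36 with the block. DESeq2 gave an adjusted p of 0.0320 and limma-voom 0.0818.

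Of the enzymes, Hmgcs1, at the entry of the route, had 72.2 and 87.8 CPM at 0 h, 75.6 and 74.6 at 4 h, 75.1 and 83.0 at 8 h, 76.3 and 77.3 at 12 h, then 90.0 and 79.4 at 24 h. Idi1, which makes the building block dimethylallyl diphosphate, had 27.6 and 37.9 CPM at 0 h, 31.2 and 31.4 at 4 h, 29.9 and 31.2 at 8 h, 27.0 and 31.8 at 12 h, then 37.5 and 34.4 at 24 h. The 0 h replicates of both genes lay far apart, and they enclosed every sample at 4, 8 and 12 h except Idi1 in 12 h replicate 1. At 24 h Hmgcs1 reached its highest level in replicate 1, and both Idi1 samples lay within the 0 h range. For Idi1 the log2 change from 0 h to 24 h was 0.13 (SE 0.128, edgeR adjusted p = 0.821).

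Squalene and its epoxide are made by the products of Fdft1 and Sqle. Fdft1 had 177 and 186 CPM at 0 h, 181 and 173 at 4 h, 169 and 175 at 8 h, 159 and 176 at 12 h, then 176 and 191 at 24 h. Its 8 h and 12 h samples lay below both 0 h samples, a separation found in 15.8% and 21.3% of all tested genes. The log2 changes were -0.08 and -0.11 (edgeR adjusted p = 0.996 and 0.588). Sqle had 102 and 114 CPM at 0 h, 106 and 94.7 at 4 h, 98.3 and 104 at 8 h, 95.01 and 109 at 12 h, then 98.4 and 104 at 24 h, and every later time overlapped 0 h.

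Lss closes the sterol rings and Cyp51 acts on its product. Lss had 52.1 and 58.1 CPM at 0 h, 49.9 and 53.6 at 4 h, 50.8 and 57.7 at 8 h, 45.8 and 58.1 at 12 h, then 48.8 and 57.3 at 24 h. In every pair its replicate 1 was the lower one. Cyp51 had 126 and 150 CPM at 0 h, 132 and 127 at 4 h, 131 and 133 at 8 h, 118 and 139 at 12 h, then 136 and 133 at 24 h. For both genes the groups overlapped at every time, and no log2 change from 0 h was larger than -0.10 in size (edgeR adjusted p of 0.695 or more).

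**Figure D2:**
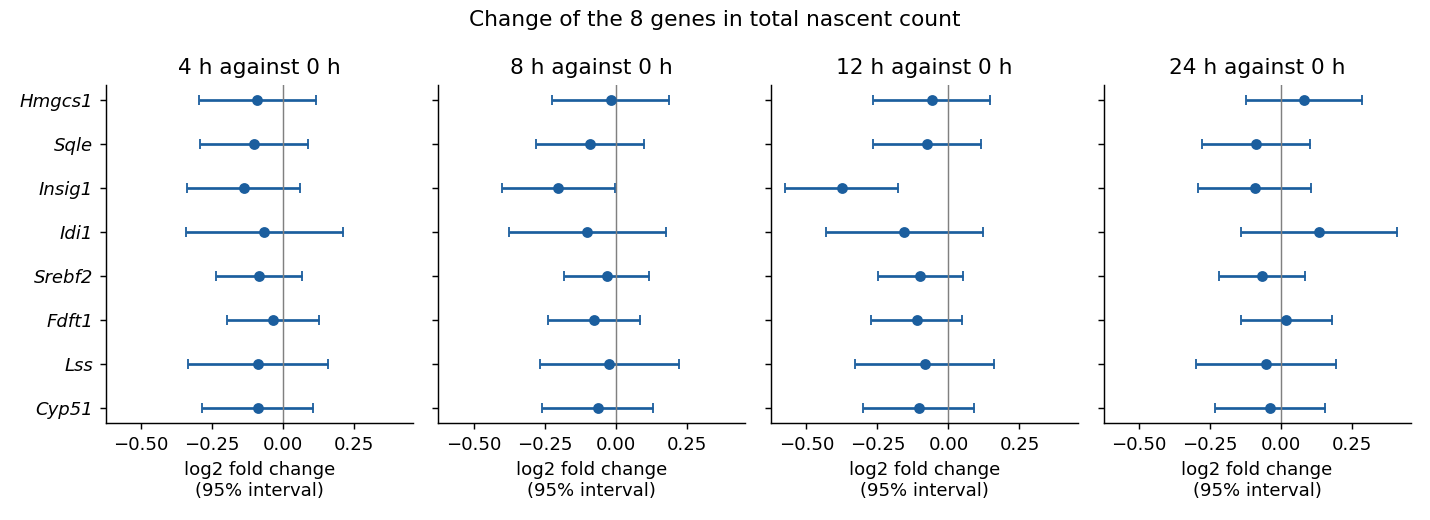
Each panel shows one time against 0 h, with the log2 fold change of total nascent count on the horizontal axis. Points are the 8 genes and bars the 95% interval from edgeR's fit to all 10 samples, without the replicate block. Insig1 at 8 h and 12 h has an interval that stays below 0 (upper bounds -0.0040 and -0.18), and the other intervals in the 4 panels include 0.

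Although edgeR called no gene without the block, the values leaned the same way. All 8 lay below 0 at 4, 8 and 12 h, with medians of -0.09, -0.07 and -0.10 on the log2 scale, where 49.8%, 50% and 50.8% of all tested genes lay below 0. At 24 h 5 of the 8 lay below 0 (47.5% of all genes), with a median of -0.05. These comparisons share the 0 h samples, and 0 h replicate 2 held the highest level of 4 of the 8 genes. Without it, 5, 4, 5 and 3 of the 8 lay below 0 at 4, 8, 12 and 24 h, with medians of -0.01, 0.01, -0.01 and 0.03. Without 0 h replicate 1 the counts were 8, 7, 8 and 8 and the medians -0.18, -0.16, -0.17 and -0.10. The shared direction therefore depended on which 0 h replicate was used.

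Between successive times, edgeR called none of the 8 from 4 h to 8 h or from 8 h to 12 h, when 0% of all genes were called both times, and none from 12 h to 24 h, when 0.00688% were called. Unadjusted p-values under 0.05 numbered 0, 0 and 2 (2.31%, 4.4% and 9.02% of all genes), and DESeq2 and limma-voom made no call in these 3 comparisons. From 12 h to 24 h, 7 of the 8 genes had a value above 0 (48.2% of all tested genes lay below 0), with a median log2 change of 0.10. The largest were Idi1, at 0.29 (SE 0.129, adjusted p = 0.536), and Insig1, at 0.28 (SE 0.0938, adjusted p = 0.456). Sqle was the gene below 0, at -0.01. Hmgcs1, Idi1 and Insig1 were higher in both 24 h samples than in both 12 h samples, a separation seen in 22.5% of all tested genes. Without 12 h replicate 1, 5 of the 8 lay above 0 and the median was 0.03.

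A second question was whether the 8 genes moved as a group from sample to sample. Over the 28 pairs of genes, the median Pearson r of log2 CPM across the 10 samples was 0.50, ranging from -0.31 to 0.84, and 26 pairs were above 0. The median Spearman rho was 0.44. Over all pairs of tested genes the median r was 0.00, and 10.3% of them reached the members' median. The points share their libraries, their times and their base composition, so r across 10 samples does not separate shared control from shared library differences. Taken as deviations from the mean of each time, the median was 0.59, which leaves out differences between times. With 2 samples per time these deviations mirror each other, so each time adds only a single independent value per gene. The 0.59 therefore rests on fewer independent values than the 0.50, and its counterpart over all gene pairs is not given. The median of 0.50 ranged from 0.38 (without 12 h replicate 1) to 0.67 (without 24 h replicate 1) when samples were left out one at a time.

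Hmgcs1 and Idi1 had the highest r, 0.84, with a rho of 0.72 (permutation p = 0.00286 and 0.0239, adjusted over the 28 pairs to 0.0267 and 0.134). Sqle and Cyp51 followed with an r of 0.83 and a rho of 0.75 (permutation p = 0.00226 and 0.0175, adjusted 0.0267 and 0.122). Idi1 and Cyp51 had an r of 0.82 and a rho of 0.85 (permutation p = 0.0028 for both, adjusted 0.0267 and 0.0784). These were the 3 pairs with an adjusted p under 0.05 for r, and no pair passed for rho. The permutations shuffled the samples freely, although the samples share times and replicate numbers. The share of all gene pairs that would pass is not given. Without the 2 samples farthest from the median of the first gene, r was 0.53, 0.71 and 0.76. Srebf2 was least like the rest. Its median r with the other 7 was 0.13, against 0.36 for Hmgcs1 and 0.48 or more for the other enzymes and Insig1, and its r with Hmgcs1 was -0.31.

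Samples lay on both sides. In 12 h replicate 1 every one of the 8 genes was below its own mean over the 10 samples, by 1.53 SD on average, and it held the lowest level of 5 of them. In 0 h replicate 2 all 8 were above their mean, by 1.34 SD on average. At 12 h replicate 1 was below replicate 2 in all 8 genes, at 0 h and 8 h in 7 of 8, at 4 h in 3 and at 24 h in 4, while 49.98% of all tested genes had the lower value in replicate 1 at 12 h. The depth of 12 h replicate 1, at 21006392 counts, and its allelic counts, at 52.1% of the total, lay within the range of the other samples. Its TMM factor, 0.970, was the lowest of the 10, the others lying between 0.986 and 1.036. Whether library differences set its low levels was not tested.

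**Figure D3:**
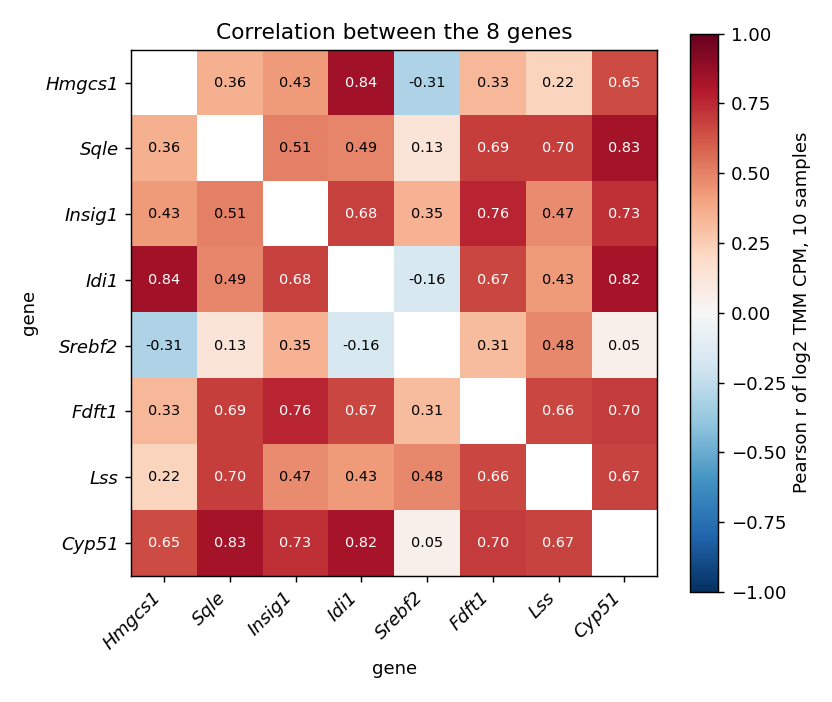
The grid gives Pearson's r of log2 TMM-scaled CPM across the 10 samples for each pair of the 8 genes, on a colour scale from -1 (blue) to 1 (red). The row of Srebf2 is the palest, with values from -0.31 to 0.48, and the cells of Hmgcs1 with Idi1, Sqle with Cyp51 and Idi1 with Cyp51 are the darkest.

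The mean standardised level of the 8 genes was then set against all other tested genes with a mean of at least 5 CPM, and these 10 were most like it. They were Gpank1 (r = 0.98), 5430416N02Rik (0.95), Orc6 (0.93), Zfp120 (0.93), Smim3 (0.92), Eny2 (0.92), Fam160b1 (0.91), Slbp (0.91), Sub1 (0.91) and 1810022K09Rik (0.90), each over 10 samples. Next came the sterol methyl oxidase gene Msmo1, at rank 11 of 10144 with an r of 0.89. Hsd17b7, which encodes another enzyme after lanosterol, ranked 23 (0.87), and both are named after their ranks were seen. Over 14 other cholesterol synthesis enzymes ranked, r was above 0 for all 14, with a median of 0.45, against 51.0% above 0 and a median of 0.01 for all 10144. For 11 genes of SREBP control and sterol uptake the median was 0.16, with 6 above 0. It was 0.18 for 3 genes of sterol efflux, with 2 above 0, and -0.27 for 9 genes of fatty acid synthesis, with 4 above 0.

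The rest of the pathway was compared with 0 h in the same fit. Of 15 other cholesterol synthesis enzymes 14 could be tested. By edgeR 1 of them, the X-linked Nsdhl, was called lower at 12 h and at 24 h, and was called across the 5 times. Of all tested genes, 0.854% were called lower at 12 h, 1.54% lower at 24 h and 1.25% across the 5 times. None of the 14 was called higher at any time, and at 4 h and 8 h none of them was called. The median log2 change of the 14 was -0.03, -0.04, -0.10 and -0.04 at 4, 8, 12 and 24 h, beside medians of at most 0.01 in size for all tested genes. Ebp, on the X chromosome, had 0 counts in all 10 samples. Its span lies wholly within that of Btbd35f15 on the same strand, which had 7705 to 10237 counts, and reads that overlap 2 genes on a strand were not counted.

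Of 12 genes of SREBP control and sterol uptake, edgeR called none at any time, nor did it call any of 3 testable genes of sterol efflux or 9 of fatty acid synthesis. At 12 h, unadjusted p-values under 0.05 numbered 5 of 12, 0 of 3 and 3 of 9, where 11.5% of all genes had one. With the replicate block, edgeR called 2 of the 12 control and uptake genes lower at 12 h, Mbtps2 (adjusted p = 0.00374) and Srebf1 (0.0321). It also called 3 of the 9 fatty acid genes lower, Fads2, Fasn and Scd2 (adjusted p = 0.0186, 0.0161 and 0.0172). That fit called 2.99% of all tested genes lower at 12 h. At 24 h the block, which then called 5.32% of all genes, called Mbtps2, Fasn and Abca1 (edgeR adjusted p = 0.0314, 0.00145 and 0.0346). Across the 5 times, where it called 6.12% of all genes, the block called Mbtps2, Soat1, Abca1 and Fasn. DESeq2 also called Fasn at 24 h, and the share of all genes it called then is not given. Without 0 h replicate 1 and without the block, edgeR called Mbtps2 lower at 12 h (log2 change -0.44, adjusted p = 0.0497). Srebf1, Fads2, Fasn, Scd2, Abca1 and Soat1 are named because they were called, after their values were seen.

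Nsdhl and Mbtps2 lie on the X chromosome, and the B6 share of both fell. Nsdhl, a sterol dehydrogenase gene on chrX:72918521-72958528, had 114 and 121 CPM at 0 h, 110 and 104 at 4 h, then 96.8 and 92.1 at 8 h, 83.8 and 92.2 at 12 h, then 84.8 and 88.9 at 24 h. Every sample with DOX lay below both 0 h samples. At 12 h the log2 change of its total count was -0.42 (SE 0.0771) with an edgeR adjusted p of 0.0144. At 24 h it was -0.43 (SE 0.0771) with an adjusted p of 0.00547. At 8 h it was -0.31, with an adjusted p of 0.245 and of 0.0165 with the replicate block, which called 0.744% of all genes at that time. Without 12 h replicate 1 the adjusted p at 12 h was 0.251, and without 24 h replicate 1 that at 24 h was 0.0831. Its B6 share of allelic reads was 0.456 and 0.476 at 0 h and 0.309 and 0.307 at 24 h. Mbtps2, which encodes a protease that releases SREBP, went from shares of 0.473 and 0.461 to 0.338 and 0.301. The log2 B6 to Cast ratio fell by 0.97 for Nsdhl and by 0.90 for Mbtps2 from 0 h to 24 h (edgeR adjusted p = 8.32e-16 and 9.6e-21). At 24 h edgeR called the B6 share changed in 314 of 11906 tested genes, and in 41 of the 11543 autosomal ones. A falling B6 share was thus not particular to these X-linked genes.

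The allelic share of the 8 members lay close to that of the autosomes as a whole, whose median was 0.521 to 0.524 per sample. The B6 share was called changed in 0 of 8 genes at 4, 8, 12 and 24 h by edgeR over 11906 genes, of which 0.361%, 1.66%, 2.15% and 2.64% were called at those times. Among the 11543 autosomal genes alone, 0.00866%, 0.052%, 0.156% and 0.355% were called. No member had an unadjusted p under 0.05 at any time, beside 5%, 5.9%, 7.38% and 8.21% of all genes. limma on log2 ratios called none either, with 1 unadjusted p under 0.05 at 8 h. The replicate block called none, with 1 unadjusted p under 0.05 at 24 h, for Hmgcs1. The log2 ratio lay above that of 0 h in 6, 7, 4 and 8 of the 8 genes at 4, 8, 12 and 24 h. The medians were 0.07, 0.05, 0.02 and 0.02. These comparisons share the 0 h samples, and the share over all genes is not given. Shares in single samples ran from 0.484 (Hmgcs1, 4 h replicate 1) to 0.610 (Idi1, 8 h replicate 1). The Idi1 value rested on 158 B6 and 101 Cast reads, with a 95% Wilson interval of 0.549 to 0.667, and that gene had the fewest allelic reads of the 8, 209 to 331 per sample. Its shares were 0.531 and 0.535 at 0 h, 0.550 and 0.584 at 4 h, 0.610 and 0.578 at 8 h, 0.526 and 0.555 at 12 h, then 0.563 and 0.531 at 24 h. At 8 h its log2 ratio was 0.36 above that of 0 h (SE 0.196, edgeR adjusted p = 0.917). Insig1, whose total count was lowest at 12 h, had shares of 0.508 and 0.512 at 0 h and 0.510 and 0.500 at 12 h (log2 change of the ratio -0.03, SE 0.102, edgeR adjusted p = 0.982).

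Over all samples, the B6 allele had more reads than the Cast allele in 7 of the 8 genes by edgeR, or 87.5%, where 49.2% of the 11906 genes were called higher on B6 and 74.7% unequal in either direction. Mean shares were 0.556 ± 0.0276 (SD, n = 10) for Idi1, 0.540 ± 0.0115 for Srebf2, 0.533 ± 0.00986 for Cyp51, and 0.525 for both Lss and Fdft1. They were 0.519 ± 0.0213 for Hmgcs1, 0.515 ± 0.0161 for Insig1 and 0.502 ± 0.0129 for Sqle, the gene without a call (edgeR adjusted p = 0.621). The log2 B6 to Cast ratio ran from 0.02 for Sqle to 0.33 for Idi1, with a median of 0.15. Over 11543 autosomal genes the median ratio was 0.13 with quartiles of -0.12 and 0.39, and the 8 members fell between its 36.2th and 70.8th percentile. The excess of B6 reads was thus of the size found across the autosomes. The call of Hmgcs1 was lost with limma (adjusted p = 0.061) and without 4 h replicate 2 (0.0701), and that of Insig1 without 24 h replicate 2 (0.105).

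**Figure D4:**
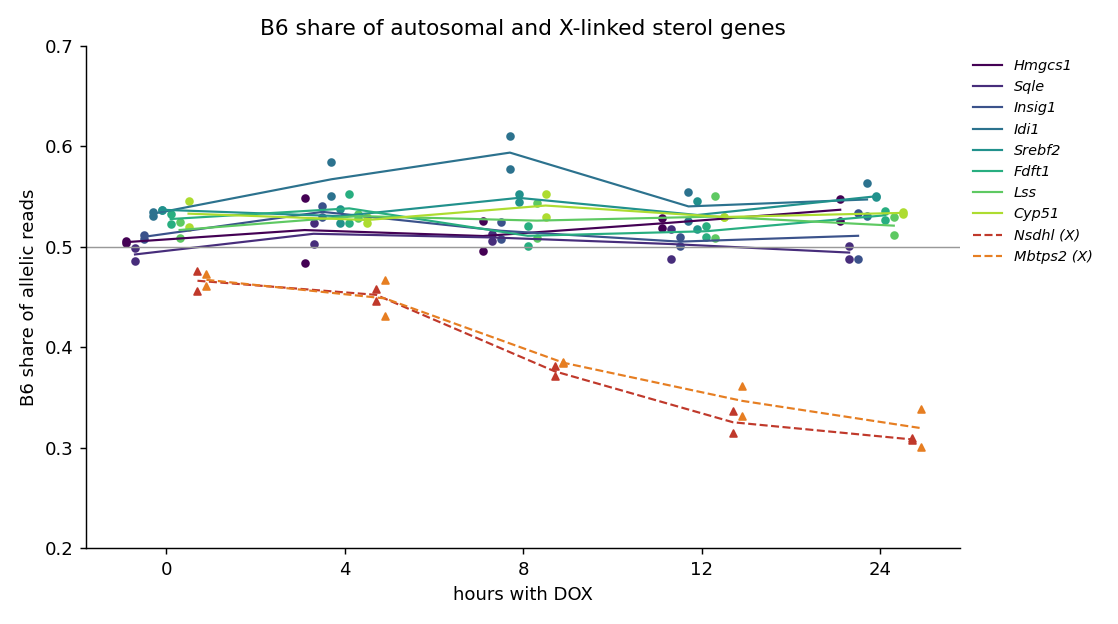
The B6 share of allelic reads (vertical axis, B6 reads over B6 plus Cast reads) is plotted against hours of DOX (horizontal axis, evenly spaced) for the 8 autosomal genes (circles, solid lines through the means of 2 replicates) and the X-linked Nsdhl and Mbtps2 (triangles, dashed lines). The autosomal genes lie between 0.484 and 0.610 at every time, and the X-linked genes go from 0.456 to 0.476 at 0 h to 0.301 to 0.338 at 24 h.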

How the data were processed

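TT-seq was analysed in 10 samples, 2 replicates at each of 5 times, grouped by the sample labels. Upstream, the authors used Cutadapt 1.16 for trimming and STAR 2.3.0 for alignment to N-masked mm10 (unique, proper pairs, mapping quality of at least 7), split alleles with SNPSplit 0.3.2 and counted strand-specific reads over gene spans with featureCounts 1.5.1. The submitters' processing notes also list TopHat2 2.1.0. The deposited counts per gene (total, B6, Cast) were not normalized, scaling to spike-in RNA is not stated, and the deposited fraction (B6 over allelic reads) equalled the counts' own ratio. The 8 genes and the other lists were chosen with earlier results of these data known.

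Tests of the total counts used edgeR 4.0.16 (R 4.3.3, filterByExpr, TMM, time as factor, all 10 samples, 14525 genes). The B6 share used 20 columns of B6 and Cast counts with an intercept per sample, for the 11906 genes that had 10 or more allelic reads throughout. P-values were two-sided and adjusted by Benjamini-Hochberg over all tested genes. With 2 samples per time, p-values measure only the spread between these samples, which may be technical. Genes named were the members, Nsdhl, Ebp, Mbtps2, any called list gene and the 10 genes with the highest r, and Msmo1 and Hsd17b7 were added after their ranks were seen. Some genes of the pathway lists are not reported here and were left out of the list counts. Same-numbered samples deviated together in total counts (r of deviations 0.132 to 0.253 over the 10 pairs of times, 14525 genes). The study states no such block, so the main fits, with their standard errors and intervals, left it out. The fit with the replicate block is given where it changes a call. For B6 to Cast ratios r was 0.00 to 0.03. Correlations used 100000 permutations. Wilson intervals cover counting error only, since reads without molecular identifiers are not independent molecules. DESeq2 1.42.0 and limma 3.58.1 served as alternatives, and the scripts were tested on simulated data.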

Additional observations from a re-analysis of the deposited data

How the results depend on the processing

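The count of members called changed at 12 h against 0 h was 0 by edgeR, and 1 (Insig1) with DESeq2, with no low-count filter and with the replicate block. For DESeq2 and the fit without the filter, the share of all genes called is not given. The count at 12 h is taken up again here. That count ranged from 0 to 1 over the fits that left out a sample, both without the block and with it. The combination with the block was chosen after seeing the data. From 12 h to 24 h and across the 5 times the count was 1 with the block, and 0 to 1 with the block and a sample left out. In each case the gene was Insig1. With the block, leaving out 12 h replicate 1 ended all 3 of these calls. DESeq2 size factors, library totals, autosomal genes only, limma-voom and the 4 samples alone gave 0 at 12 h. At 4, 8 and 24 h against 0 h the count was 0 under every alternative run, as was the count of changed B6 shares. Members with unequal alleles numbered 6 to 7 with a sample left out and 6 with limma. The replicate block changed no other call among the members. Of 1282 alternative values for 80 single changes of the members, 56 had the opposite sign, all of them values without a call and 55 of them with a sample left out, the largest being 0.17 in size, for Idi1 at 4 h. The other was Sqle from 12 h to 24 h, 0.03 with library totals. For the X-linked genes, limma on log2 ratios ended the calls of the B6 share at 8 h of Nsdhl (adjusted p = 0.063) and Mbtps2 (0.329) and at 12 h of Mbtps2 (0.0562), and the 4 samples alone ended that of Nsdhl's total count at 12 h (0.0663). The cause of these differences was not tested. With 2 replicates per time, the standard error of a member's log2 change was 0.070 to 0.130, which limits what could be detected.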

Other observations

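Scd1, a stearoyl-CoA desaturase gene in the list of fatty acid synthesis, had 0 counts in all 10 samples. Its whole span lies within that of Gm38437 on the same strand, which also had 0 counts in every sample, and no level is given for it here.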
